A study of Homo sapiens with 3 samples.

Results

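CTCF and the cohesin genes were examined as targets of MATR3 (matrin 3), a nuclear matrix protein that binds RNA. The set holds 10 genes chosen by name: CTCF, the ring genes SMC1A, SMC3 and RAD21, the accessory subunits STAG1 and STAG2, the loader NIPBL, the release factor WAPL (older symbol WAPAL), and the regulators PDS5A and PDS5B. The deposited tables name the release factor WAPL. These genes held 324, 281 and 282 read clusters in replicates 1, 2 and 3, which was 887 of the 388807 clusters of the series. RNA bound to MATR3 was recovered by PAR-CLIP, which crosslinks a photoactivatable uridine analogue to bound protein and reads the crosslink as a T-to-C change. All 3 biological replicates used an antibody against MATR3 and wild-type, untreated HEK293, a long-established line from human embryonic kidney. There was 1 group and no control library, and transcript abundance was not used here, so more binding and more RNA of a gene cannot be told apart here.

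Cohesin is a ring-shaped complex that entraps DNA. SMC1A and SMC3 are its long coiled-coil ATPases, RAD21 closes the ring, and either STAG1 or STAG2 docks on RAD21. NIPBL loads cohesin and drives loop extrusion, WAPL releases it with the help of PDS5A or PDS5B, and CTCF, a zinc finger protein, halts it at loop anchors. MATR3 is known to act with CTCF and cohesin on chromatin, and it is also known to bind pyrimidine-rich RNA in introns. The values below concern its sites on the transcripts of these genes, not its contacts with their proteins.

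The 887 clusters merged into 785 separate regions, of which 87 held clusters of at least 2 replicates and 10 held clusters of all 3. These 10 lay in 7 of the genes. The sequences of 7 of them are shown because they are the places in these transcripts where the 3 libraries met, with intron numbers counted in the MANE Select transcript from the 5′ end. Each is written 5′ to 3′ on the transcribed strand from the hg38 reference, and capitals mark the bases covered in all 3 replicates.
CTCF intron 7, chr16:67624354-67624487, plus strand: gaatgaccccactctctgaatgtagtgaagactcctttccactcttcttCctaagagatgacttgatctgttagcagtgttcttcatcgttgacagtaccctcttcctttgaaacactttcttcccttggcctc
STAG1 intron 1, chr3:136632731-136632821, minus strand: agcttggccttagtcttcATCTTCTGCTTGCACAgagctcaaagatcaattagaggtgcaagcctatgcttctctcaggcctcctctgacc
STAG1 intron 1, chr3:136721062-136721228, minus strand: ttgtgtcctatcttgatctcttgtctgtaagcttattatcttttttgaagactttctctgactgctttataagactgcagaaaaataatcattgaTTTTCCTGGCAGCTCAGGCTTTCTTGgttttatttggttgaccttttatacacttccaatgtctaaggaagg
STAG2 intron 6, chrX:124042153-124042192, plus strand: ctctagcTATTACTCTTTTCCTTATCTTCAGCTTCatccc
NIPBL intron 1, chr5:36940435-36940538, plus strand: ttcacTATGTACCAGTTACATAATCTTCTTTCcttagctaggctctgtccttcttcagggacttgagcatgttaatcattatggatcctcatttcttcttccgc
PDS5A intron 6, chr4:39922057-39922132, minus strand: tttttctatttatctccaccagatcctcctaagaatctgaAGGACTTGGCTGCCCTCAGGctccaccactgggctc
PDS5B intron 1, chr13:32629758-32629863, plus strand: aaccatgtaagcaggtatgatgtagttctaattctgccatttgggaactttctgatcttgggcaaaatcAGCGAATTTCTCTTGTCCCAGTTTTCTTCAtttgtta

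In CTCF the 3 libraries met in a region of 134 nt, with 22, 7 and 51 reads in replicates 1, 2 and 3, and shared 1 base. The STAG2 region of 40 nt was the shortest and the richest in pyrimidines, with 80.0% C or T. Its clusters shared 28 bases and had 10, 5 and 9 reads, but only 2 distinct reads in each replicate. This region overlapped an exon of another annotated STAG2 transcript. The STAG1 region near 136721062 had 10, 35 and 18 reads and the one near 136632731 had 22, 16 and 10. In NIPBL the reads were 27, 4 and 17, in PDS5A 19, 8 and 7, and in PDS5B 7, 9 and 22. Distinct reads in replicate 3 were 2 in the STAG1 region near 136632731 and 1 in PDS5A. C and T together made up 57.5% to 80.0% of the 7 sequences shown. Of the remaining 3 regions, 1 lay in the 3′ UTR of SMC1A, and 2, in introns of SMC1A and STAG1, were chains of clusters with no base common to all replicates. ATCTT, which is AUCUU in RNA and a motif that MATR3 is known to bind, occurred in 6 of the 10 regions. The regions were 40 to 264 nt long and single clusters of the set had medians of 39, 39 and 36 nt. The count of 6 thus cannot be set beside a share of clusters. Bases covered in all 3 replicates held ATCTT in the STAG2 and NIPBL regions and in the STAG1 region near 136632731. In the rest of the 6 it lay outside such bases.

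Each of the 10 genes had a cluster in all 3 replicates. Of 20018 protein-coding genes in GENCODE release 44, 40.7% had a cluster in each replicate, and of the 9729 at least as long as RAD21, the shortest of the set at 28.8 kb, 55.1% did. The set lies toward long genes, with a median length of 120.8 kb against 45.4 kb for the 8155 protein-coding genes found in all replicates. Its summed reads were 3796, 2656 and 3093, or 0.262%, 0.2% and 0.228% of the reads in gene-annotated clusters. Levels are given below as normalised reads, scaled so that all gene-annotated clusters of a replicate sum to 1000000. The median over the 10 genes was 209.6 normalised reads, against 64.0 for the 8155 genes. Per kb of gene the medians were 1.46 and 1.55, so the set's level per length was close to that of bound genes in general.

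**Figure D1:**
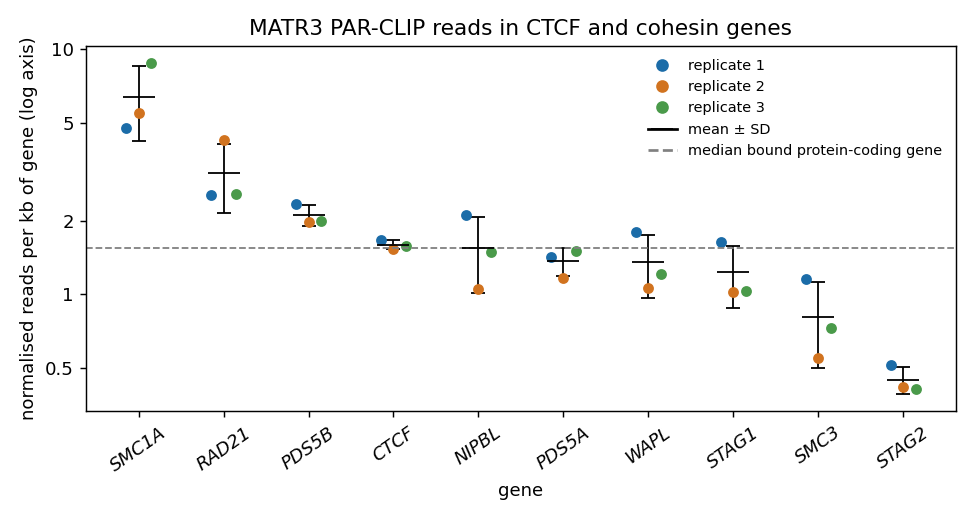
Normalised reads per kb of annotated gene length (vertical log axis) for the 10 genes in order of their mean, with a point for each replicate and bars for the mean ± SD (n = 3). SMC1A, at 6.38 on average, lies above the dashed median of bound protein-coding genes (1.55) in all 3 replicates, as do RAD21 and PDS5B, while PDS5A, SMC3 and STAG2 lie below it in all 3.

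Among the ring genes, SMC1A had the highest level per kb of the set and SMC3 the lowest but for STAG2. Their proteins form the heterodimer at the core of the ring. SMC1A (chromosome X, 53374149 to 53422728, minus strand, hg38) had 22, 29 and 42 clusters with 337, 356 and 583 reads in replicates 1, 2 and 3. Replicate 3 was the highest and replicates 1 and 2 lay close together. This gave 309.9 normalised reads ± 105 and 6.38 per kb ± 2.15 (SD, n = 3), which placed SMC1A at percentile 87.4 of the 8155 genes by level per kb. SMC3 (chromosome 10, 110567684 to 110606048, plus strand) had 8, 3 and 5 clusters with 64, 28 and 38 reads. It was the least bound of the set by reads, at 31.1 normalised reads ± 11.9 (SD, n = 3), and the ranges of these genes did not overlap. Within libraries the log2 ratio of SMC1A over SMC3 per kb was 2.06, 3.33 and 3.6, a mean of 2.99 ± 0.82 (SD, n = 3), above 0 in 3 of 3 replicates. The exact two-sided sign-flip p was 0.25, the smallest that 3 replicates allow, and 0.333 after Benjamini-Hochberg adjustment over the 4 pairs of genes compared. Counted by clusters instead of reads, the log2 ratio was 2.26 per kb of gene. For intron clusters per kb of intron it was 1.54.

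SMC1A was also the gene of the set with most sites in its 3′ UTR. Of its 93 clusters, 21 were classed as 3′ UTR by the authors, with 4, 6 and 11 in replicates 1, 2 and 3, and these held 42.7%, 18.3% and 24.4% of its reads. The share of its clusters in the 3′ UTR was 21.7% ± 4.09, against 5.85% ± 0.41 in gene-annotated clusters outside the set (SD, n = 3). Its values of 18.2%, 20.7% and 26.2% were above that level in every replicate. The SMC1A 3′ UTR is the longest of the set at 5957 nt, and its cluster density was 35.3 per 10 kb over the 3 replicates pooled against 18 per 10 kb in its introns. The remaining 9 genes together had 4 such clusters, 2 in CTCF and 1 each in RAD21 and PDS5B, and 6 genes had none. The SMC1A cluster with most reads in replicate 1 was there (53375343 to 53375515, 73 reads), the largest of the whole set in any replicate. No cluster of another replicate overlapped it. The leading cluster of replicate 2 was in intron 1 (53421191 to 53421308, 45 reads) and that of replicate 3 in intron 19 (53387660 to 53387735, 34 reads).

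RAD21 (chromosome 8, 116845934 to 116874776, minus strand), the kleisin subunit that is cut when sister chromatids separate, had 10, 15 and 11 clusters with 106, 163 and 101 reads. Replicate 2 was the highest. Its mean of 90.1 normalised reads ± 28.3 (SD, n = 3) is among the lower of the set, but over its short length it came to 3.12 per kb ± 0.98, above PDS5B, the next in order, in every pairing of replicates. Introns 1 and 4 held 14 and 12 of its 36 clusters, and intron 12 held 3 in replicate 2, 3 in replicate 3 and none in replicate 1. The SMC3 clusters gathered at the 5′ end, with 8 of 16 in intron 2 and 3, 2 and 3 of them in replicates 1, 2 and 3.

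The accessory subunits STAG1 and STAG2 are alternatives in the complex, and STAG2 is among the cohesin genes often mutated in cancer. STAG1 (chromosome 3, 136336236 to 136752403, minus strand) had the most clusters of the set, 84, 65 and 56, with 986, 566 and 586 reads. Replicate 1 was the highest and the other replicates were nearly equal, at 681, 426 and 431 normalised reads. All 205 STAG1 clusters were classed as intronic, and intron 1, which is 121.2 kb long and 29.6% of the intron length, held 109 of them. STAG2 (chromosome X, 123960212 to 124422664, plus strand) had 29, 28 and 25 clusters with 344, 257 and 259 reads, which is 207 normalised reads ± 26.3 (SD, n = 3) and the narrowest spread of cluster numbers in the set. The ranges of STAG1 and STAG2 did not overlap.

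How these alternatives compare per length depended on the gene model. Over the annotated span the log2 ratio of STAG1 over STAG2 was 1.67, 1.29 and 1.33, with a mean of 1.43 ± 0.21 (SD, n = 3; exact sign-flip p = 0.25, adjusted 0.333). The STAG2 span of 462.5 kb is set by a transcript that runs far past the common 3′ end, while its MANE Select transcript covers 141.0 kb. Over the MANE spans, an alternative chosen after seeing the data, the mean log2 ratio fell to 0.17 (exact sign-flip p = 0.5). That alternative also left out clusters beyond the MANE span. By their centres, 18 STAG2 clusters and no STAG1 cluster lay there. The difference between STAG1 and STAG2 per kb therefore rests on the model of STAG2, which sets both its length and the clusters counted. The position of STAG2 as the lowest gene per kb rests on the annotated span as well.

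The densest stretch of STAG2 sites was at its promoter end. In each gene the window of 5 kb with most clusters was picked by that count. Larger shares of clusters than in STAG2 lay in the windows of SMC3, CTCF, RAD21 and WAPL. In STAG2 the window began at 123961014 and covered 1.08% of the annotated span. It held 19 of 82 clusters, 5, 6 and 8 in replicates 1, 2 and 3. Of these, 8 lay up to 651 nt upstream of the MANE start, on transcripts with earlier starts, with 0, 3 and 5 in replicates 1, 2 and 3. A further 10 clusters with 82 reads lay past the MANE end, up to 12675 nt downstream, and were deposited as processed transcript. No other gene of the set had clusters outside its MANE span. The leading STAG2 cluster was at the promoter end in each replicate, beginning at 123961744 with 67 reads, at 123963111 with 30 reads and at 123961351 with 27 reads. Only that of replicate 1 overlapped a cluster of another replicate. Of the reads in the leading cluster of replicate 2, 33.3% carried a T-to-C change, against 77.6% and 77.8% in those of replicates 1 and 3. In replicate 3 another cluster at the promoter end had equal reads, and that one did overlap a cluster of another replicate.

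**Figure D2:**
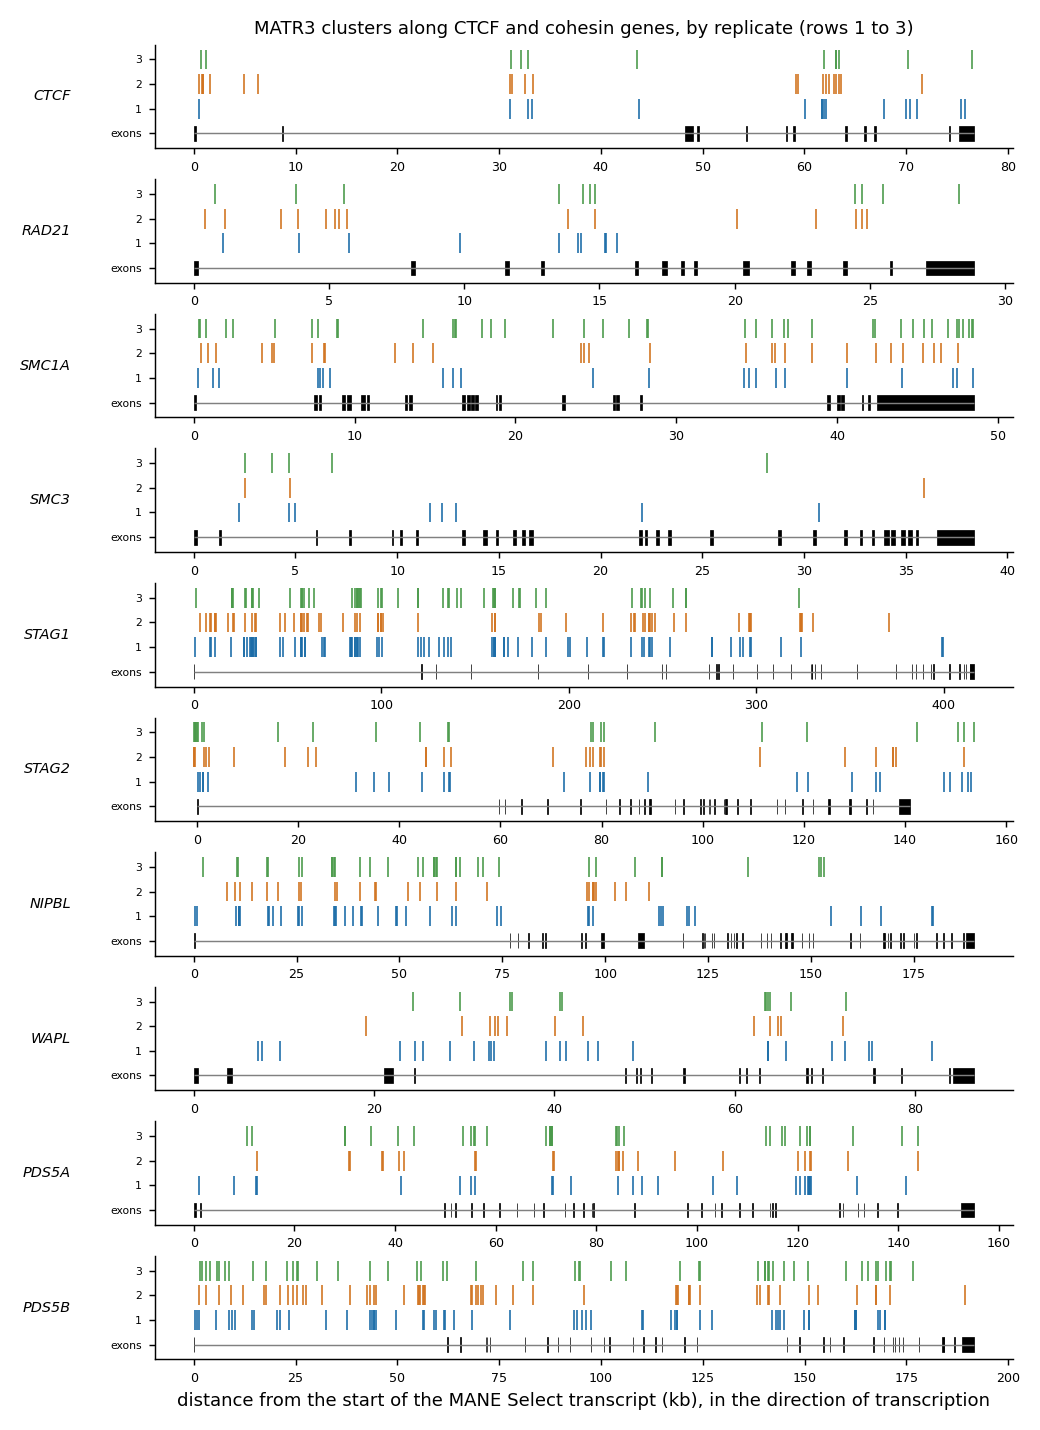
Clusters along each gene as ticks in the row of their replicate (1, blue; 2, orange; 3, green) above the MANE exons (black), against distance from the transcript start in kb in the direction of transcription. STAG1 and NIPBL clusters fill the long intron 1, SMC1A clusters run into the last exon, and STAG2 clusters also lie upstream of the start and past the end.

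NIPBL and WAPL act in opposite directions on cohesin. NIPBL (chromosome 5, 36876769 to 37066413, plus strand) had 44, 27 and 35 clusters with 577, 264 and 383 reads, or 398, 199 and 282 normalised reads. WAPL (chromosome 10, 86435256 to 86521792, minus strand) had 25, 13 and 12 clusters with 226, 122 and 143 reads, or 156, 91.9 and 105 normalised reads. In both genes replicate 1 was the highest and replicate 2 the lowest by normalised reads. Per kb they overlapped, with 1.55 ± 0.53 for NIPBL and 1.36 ± 0.39 for WAPL (SD, n = 3). The log2 ratio was 0.22, -0.02 and 0.29, a mean of 0.16 ± 0.16 that was within about its own spread (SD, n = 3; exact sign-flip p = 0.5, adjusted 0.5). It was -0.01 for intron clusters per kb of intron.

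The intron with most clusters was intron 1 in NIPBL and intron 4 in WAPL. NIPBL held 73 of its 106 clusters in intron 1, which is 76.4 kb and 42.7% of the intron length, and 29, 18 and 26 of these came from replicates 1, 2 and 3. In every replicate the NIPBL cluster with most reads was also there. It spanned 36902889 to 36903071 in replicate 1 (50 reads), 36911572 to 36911619 in replicate 2 (26 reads) and 36894577 to 36894662 in replicate 3 (29 reads). WAPL had no cluster in intron 1 or within 5 kb of its start, but its exon 2 begins 3.70 kb from the start. The window of 5 kb is 5.78% of the gene, which had 6.11 intron clusters per 10 kb of intron over the replicates pooled. An absence over so short a stretch says little about placement. Intron 4 of WAPL, 29.0% of the intron length, held 23 of 50 clusters, and the leading WAPL clusters had 18, 14 and 28 reads. Those of replicates 1 and 3 lay in introns 2 and 4, and in replicate 2 a cluster in intron 15 and another in intron 4 had equal reads.

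PDS5A and PDS5B, alternative partners of WAPL and of the cohesin acetylation cycle, also differed. PDS5B (chromosome 13, 32586452 to 32778019, plus strand) had 58, 55 and 51 clusters with 651, 504 and 517 reads, or 403 normalised reads ± 40.2 (SD, n = 3). PDS5A (chromosome 4, 39822863 to 39977956, minus strand) had 28, 25 and 33 clusters with 320, 240 and 318 reads, or 212 normalised reads ± 27.8 (SD, n = 3). Every PDS5B value was above every PDS5A value. Per kb the log2 ratio of PDS5A over PDS5B was -0.72, -0.77 and -0.40, a mean of -0.63 ± 0.20, below 0 in 3 of 3 replicates (SD, n = 3; exact sign-flip p = 0.25, adjusted 0.333). It lay between -0.74 and -0.56 when each replicate was left out in turn. Intron 1 of PDS5B, 62.2 kb long, held 74 of its 164 clusters, 26, 26 and 22 by replicate. Intron 1 of PDS5A is only 0.839 kb long and had 1 cluster. Pooled over replicates, the density in intron 1 was thus 11.9 clusters per 10 kb in both genes, though for PDS5A it rests on that 1 cluster. Introns 26 and 2 of PDS5A held 19 and 18 of its 86 clusters.

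CTCF (chromosome 16, 67562467 to 67639177, plus strand) had 16, 21 and 12 clusters in replicates 1, 2 and 3. Its reads were steady at 185, 156 and 165, or 128, 118 and 121 normalised reads, the smallest relative spread of the set. Its mean of 1.59 per kb ± 0.068 (SD, n = 3) was at percentile 50.9 of the bound protein-coding genes, so CTCF was a gene of middling level per length. The clusters occupied 4 of its 11 introns, and each of these 4 had clusters in all 3 replicates. Intron 7, 4.96 kb long, held 18 clusters, which is 39.1% of the intron clusters in 6.81% of the intron length. By replicate it held 5, 9 and 4 clusters with 81, 70 and 86 reads. Intron 2, the longest at 39.6 kb, held 12 clusters, 4 in each replicate. Outside introns CTCF had 2 clusters in the 3′ UTR and 1 at the stop codon, each with 6 or 7 reads.

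The leading CTCF clusters were at different places. That of replicate 3 spanned 67624354 to 67624483 in intron 7 and had 51 reads, of which 19 were distinct; it overlapped clusters of both other replicates. Replicate 1 had its leading cluster in intron 10 (67632492 to 67632542, 26 reads), with no match in another replicate. Replicate 2 had it in intron 2 (67593576 to 67593615, 13 reads), where it overlapped a cluster of 1 other replicate. The protein-coding genes nearest to CTCF in log2 normalised reads over the 3 replicates, among 8154, were EMSY with 122, 114 and 123, ABHD17A with 124, 124 and 125, and GNAS with 125, 114 and 130. Nearest to STAG1, the highest of the set, were TCF12, FAM168B and LCLAT1 with 648, 633 and 608 normalised reads in replicate 1. With 3 samples of a single group, such likeness is a likeness of level.

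For 3 genes the intron with most clusters per length was the same in every replicate. Among introns with at least 2 clusters in the replicate, intron 7 of CTCF led with 10.1, 18.1 and 8.06 clusters per 10 kb. In STAG2 it was intron 6, 4.95 kb long, with 10.1, 12.1 and 8.09 per 10 kb and 15 clusters in all. In NIPBL it was intron 8, 3.73 kb long, with 8.03, 16.1 and 5.36 per 10 kb and 11 clusters in all. The other 7 genes had different leading introns between replicates. These introns were singled out by their values, so the densities are a description.

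**Figure D3:**
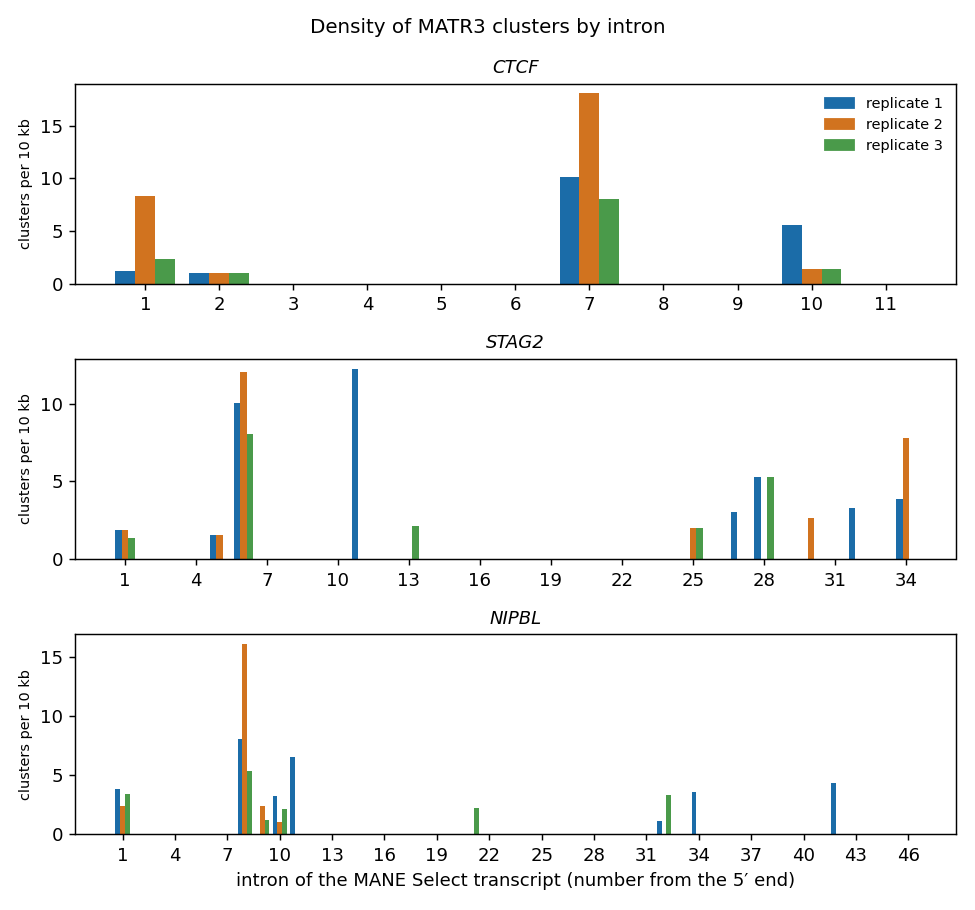
Clusters per 10 kb in each intron of the MANE transcripts of CTCF, STAG2 and NIPBL, with a bar for each replicate. CTCF intron 7, STAG2 intron 6 and NIPBL intron 8 have bars from all 3 replicates, while single clusters in short introns, such as STAG2 intron 11, give tall bars in 1 replicate only.

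By class, 94.6% ± 2.31 of the set's clusters were intronic, against 83.4% ± 0.42 of other gene-annotated clusters (SD, n = 3). The share was 94.8%, 96.8% and 92.2% by replicate and above that of other genes in 3 of 3. The set's genes are longer than most, and class length was not corrected for. Of the 887 clusters, 839 were intronic, 25 in 3′ UTRs, 10 on processed transcript, 4 in 5′ UTRs, 3 in coding sequence and 6 in other classes. The coding sequences of the 10 MANE transcripts sum to 39336 nt. Near exons, intron clusters were about as frequent as intron bases: 16.9% ± 2.2 lay within 500 nt of an annotated exon of their gene, and 18.2% of the intron bases of the same genes did, weighted by clusters (SD, n = 3). Single genes departed from this. In NIPBL 4.76% of intron clusters were within 500 nt of an exon against 21.4% of intron bases, and in SMC1A it was 44.3% against 33.6%. In STAG2 it was 40.6% against 7.58%, where the base share again rests on the long annotated span.

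The set's clusters recurred between replicates about as often as others did. A cluster counted as found when it shared 1 nt or more, on its own strand, with a cluster of another replicate. Over all clusters of the series 21.2% were found, and in the set 21.5% ± 3.9, with 17.6%, 25.3% and 21.6% by replicate (SD, n = 3). After the set's clusters were moved by 1000 nt, 6.19% ± 1.0 overlapped, and of the other clusters 10.9% ± 0.38 did (SD, n = 3). SMC1A had the highest share, with 39 of 93 clusters found (41.9%) against 15.6% after moving, and WAPL the lowest, with 4 of 50 (8%) against 5%. In CTCF 15 of 49 clusters were found. SMC1A, the gene with most clusters per kb, thus had the highest share both in place and after moving, and the part of density in the order of the genes was not tested.

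**Figure D4:**
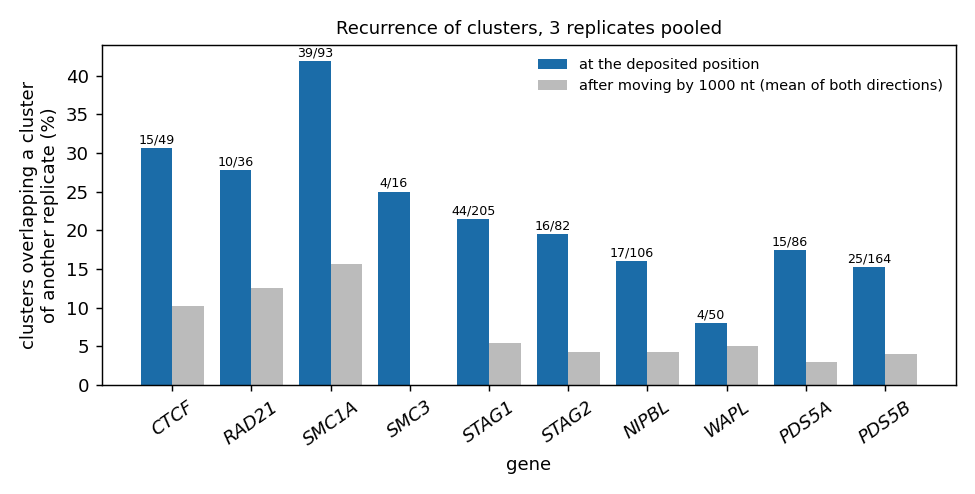
Percentage of each gene's clusters that overlap a cluster of another replicate in place (blue, with counts above the bars) and after moving by 1000 nt (grey), over 3 replicates pooled. The blue bar is above the grey bar in all 10 genes, with the smallest gap in WAPL (8% against 5%).

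The T-to-C signal and the sequence of the intron clusters were compared with other intron clusters. Per T position, conversion was 10% ± 0.70 in the set, with 9.24%, 10.2% and 10.6% by replicate, and 10.9% ± 0.38 in others, with 10.5%, 11.1% and 11.2% (SD, n = 3). It was lower in the set in 3 of 3 replicates. By gene, over all its clusters, mean conversion ran from 9.46% ± 0.53 in PDS5B to 11.2% ± 1.2 in CTCF (SD, n = 3). The intron clusters of the set contained 35.4% T ± 0.76 and 41.8% G or C ± 0.40, against 31.9% T ± 0.90 and 47.2% G or C ± 0.69 in others (SD, n = 3). The part of this base composition in the rate per T was not tested. Counted by reads instead, 89.4% ± 1.1 of those in the set carried a T-to-C change and 87.5% ± 0.61 of those in others, so the order was the other way (SD, n = 3).

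ATCTT was present in 102 of the 839 intron clusters of the set, and in 9.69% of all intron clusters of the series. By replicate the set had 14.3%, 11.8% and 10% against 10.1%, 9.39% and 9.57% in other intron clusters. The set was higher in each, but the gap in replicate 3 was smaller than the set's SD of 2.2 percentage points (n = 3). The density of ATCTT ranged widely between genes. Over all clusters of a gene, ATCTT occurred 3.90 times per kb of cluster in PDS5A, 3.79 in PDS5B, 3.30 in STAG1, 3.27 in STAG2 and 3.20 in SMC3, all above the density in the whole gene on the sense strand, which was 1.67, 2.0, 1.60, 1.60 and 1.41. NIPBL and WAPL lay between, at 2.73 and 1.83 per kb of cluster against 1.92 and 1.57 in the gene. In CTCF, RAD21 and SMC1A the motif was rarer in clusters than in the gene, at 0.93, 0.61 and 0.99 per kb against 1.17, 1.59 and 1.13. Those 3 genes had 2, 1 and 4 clusters with ATCTT and SMC3 had 2, so the values of these 4 genes rest on few sites. Overlapping clusters of different replicates count the same genomic site more than once. Clusters held more T than the gene in 7 of the 10 genes, but these were not the same 7 as for the motif. CTCF and SMC1A clusters held more T and less ATCTT than the gene, while SMC3 and STAG2 clusters held more ATCTT and slightly less T. The part of T content in the motif densities was not tested.

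**Figure D5:**
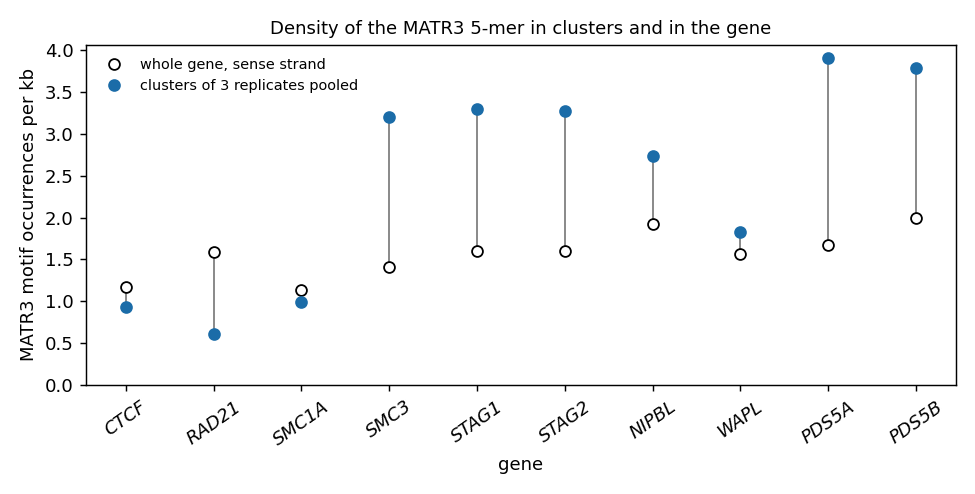
Occurrences of ATCTT per kb in the clusters of each gene (filled, 3 replicates pooled) and in the whole gene on the sense strand (open). Clusters lie above the gene in 7 genes and below it in CTCF, RAD21 and SMC1A.

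A wider list of 40 genes of chromosome architecture was examined alongside. Clusters were listed in every replicate for 32 of them, in 2 replicates for 1, in 1 replicate for 1 and in none for 6, against the 40.7% of protein-coding genes found in all 3. All 8 condensin subunits, 7 of 8 genes of the SMC5/6 complex, and TOP2A and TOP2B were found in every replicate. So were 8 of 10 genes that load, acetylate, protect or cleave cohesin and 7 of 8 CTCF paralogs and architectural factors. Of the germline or tissue-restricted cohesin subunits SMC1B, STAG3, REC8 and RAD21L1, none was found in all 3, and CTCFL, the germline paralog of CTCF, had no listed cluster. PTTG1, HASPIN and NSMCE3, which are 6.89, 2.80 and 4.83 kb long, had none either. The gene with the highest mean over replicates in each group was NCAPG2 with 340.3 normalised reads ± 74.3 for condensin, NSMCE2 with 429.5 ± 145 for SMC5/6, CDCA5, which encodes sororin, with 256 ± 96.4 for cohesin regulation, CHD8 with 225 ± 28.2 for the CTCF group, TOP2B with 189 ± 45.5, and REC8 with 3.48 ± 3.12 among the restricted subunits (SD, n = 3).

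The series held 133088, 131679 and 124040 clusters with 1649124, 1506682 and 1532602 reads, and its median cluster had 9, 8 and 9 reads. The clusters of the set had the same medians and 3 distinct reads in the median, and 35.2%, 32.0% and 39.4% of them rested on fewer than 3 distinct reads. No listed cluster had fewer than 4 reads, 2 conversion locations or 20 nt, so weaker sites were not detectable. Of genes known in HEK293, CDH2 had 21, 18 and 14 clusters, VIM 2, 1 and 0, PAX2 0, 1 and 1, and LHX1 0, 1 and 0. NEFM had none, and neither did ALB, PTPRC, HBB and COL1A1, markers of other cell types.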

How the data were processed

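MATR3 PAR-CLIP was measured in 3 biological replicates of HEK293 cells. The authors deposited a table of read clusters for each replicate, called separately. Per the file headers, the authors gave each cluster counts of reads, distinct reads and conversion events, with no scaling. The T-to-C values were deposited as a fraction from 0 to 1 of a cluster's reads. Coordinates are on hg38, per the submitters' processing notes; aligner, cluster caller and annotation release are not given in the sources used here. All 887 cluster sequences of the set equalled hg38 at their coordinates, read as 1-based. Library depth is unknown, and reads without molecular identifiers can be copies of 1 molecule.

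The members, lists and tests were chosen with earlier results of these data known. Clusters were assigned by the deposited gene name; of 13557 names, 89.6% matched GENCODE release 44 directly or through older symbols in RefSeq. Merged exons and spans came from GENCODE. Named genes were the members, the 3 nearest in level to CTCF and to the highest member, and the leading gene of each wider group. Pairs were tested with exact sign-flip tests in python 3.11.15 (numpy 2.4.6, pandas 2.3.3). The test was checked on a fixed input with a known answer, and the overlap of clusters on simulated data. No p-value is given for a value over the set. Alternatives were stricter cluster sets, other length and overlap definitions, other denominators, and leaving out each replicate. RNA-seq named in the design was not used here, and 1 marker gene is not reported here.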

Additional observations from a re-analysis of the deposited data

Results flagged for a closer look

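Clusters on the strand opposite a gene enter none of the comparisons above. They are given here because their reads exceed 3, the limit for a count of 0. Any listed cluster passes that limit, and no control library was compared. Opposite STAG2 there were 6, 4 and 5 clusters with 84, 98 and 117 reads in replicates 1, 2 and 3, 299 reads in all. They lay 327 to 1416 nt upstream of the MANE start, and all but 1 were deposited under RP1-315G1.3, a long non-coding RNA. STAG2 clusters on the sense strand lay over part of the same stretch. Opposite the other 9 genes, 36 reads lay in 1 cluster in CTCF, 2 in STAG1 and 2 in PDS5A. Clusters on a member's own strand but named for another gene held 11 reads, 6 under MIR3610 inside RAD21 and 5 under SH2D1A inside the annotated span of STAG2.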

How the results depend on the processing

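In all, 129 values were recomputed over 20 results, and 114 were counted as the same, 9 as moved and 6 as changed in direction. For the ratios of gene pairs, the same meant only the same sign, whatever the size of the move. Among the 114 is thus STAG1 over STAG2 over MANE spans, 0.17 against 1.43. So is SMC1A over SMC3, 1.54 for intron clusters per kb of intron against 2.99 for reads per kb of gene. For clusters per kb of gene that ratio was 2.26. For the count of genes it meant staying within a fixed fold range around the main count. For the other values it meant no change of direction and a move smaller than the spread. Moves of ATCTT per kb and of the share within 1000 nt were counted across a change of unit or cutoff. All 10 genes kept clusters in every replicate under each alternative run for that count. The log2 ratio of NIPBL over WAPL was -0.012 for intron clusters per kb of intron. The share found in another replicate had no stable side: it was 22.2% with at least 3 distinct reads (others 24.3%), 21.1% with at least the median read count (others 22.1%), 21.5% in introns (others 21.5%), 13.1% with 50% overlap (others 10.8%), and 9.13% to 14.4% when a replicate was left out, where fewer replicates can match. Without replicate 2 it was 9.13% against 11.8% in others. Conversion was 9.21% with at least 3 distinct reads. ATCTT was in 14.9% of intron clusters with at least the median read count and occurred 2.89 times per kb, against 2.18 in others. Within 200 nt of an exon lay 9.88% of intron clusters and 8.49% of bases, and within 1000 nt 29.0% and 30.2%. Causes were not tested. Clusters of few reads limit single sites. No paired analysis was possible because there is only 1 group, so replicate numbers pair no samples between groups; the ratios of gene pairs were taken within each replicate.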
